A study of Mus musculus with 24 samples.

Results

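The expression of 9 genes of insulin and glucagon signalling was examined by RNA-seq in mouse liver: *Insr*, *Irs1*, *Irs2*, *Pik3r1*, *Akt1*, *Akt2*, *Foxo1*, *Foxo3* and *Gcgr*. They were taken by name from the 54733 genes of the deposited tables, each name matched 1 row, and all 9 were among the 11244 genes tested, those that averaged 1 FPKM or more over the libraries (FPKM are fragments corrected for transcript length and library depth). The 24 liver libraries came from male C57BL/6 mice, 12 of the wild type (WT) and 12 of the ΔRRE mutant, with 2 libraries per genotype at each of circadian time (CT) 2, 6, 10, 14, 18 and 22. The ΔRRE mice were homozygous for a CRISPR-Cas9 deletion of the pair of RREs, the binding elements of the ROR activators and REV-ERB repressors, upstream of the clock gene *Bmal1*. Mice of both genotypes had chow at will, and a single mutant line was used for the study's experiments unless it stated otherwise. The comparison asked how the levels and daily rhythms of these genes stood with and without the rhythm of *Bmal1* transcription.

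Insulin binds its receptor on hepatocytes, which phosphorylates the adaptors IRS1 and IRS2. These recruit PI3 kinase, whose product activates AKT, and AKT in turn keeps the FOXO transcription factors out of the nucleus, so that genes of glucose production are held down. Glucagon acts through its own receptor and cAMP in the opposite direction, and the liver is the main site where both hormones set the output of glucose between meals. The values below are mRNA levels and do not show the phosphorylation steps through which most of this signalling runs.

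*Bmal1*, listed as *Arntl* in the tables, was checked first. Its level in WT ran from 0.0919 and 0.195 FPKM at CT10 to 12.6 and 13.2 FPKM at CT2, and in the ΔRRE mice all 12 libraries lay between 2.1 and 4.21 FPKM. It was the 1 gene of 11244 whose rhythm differed between the genotypes (limma, adjusted p = 0.0463; exact permutation test, two-sided, p = 4.29e-05, the smallest p this design allows). The adjusted p is close to the threshold, and the number of genes called fell to 0 in 19 of 24 omissions of a library and in 5 of 8 other settings. The 7 hepatocyte markers were all present, at a sum of 31750 to 50400 FPKM. Of 6 pancreas markers 5, *Ins1*, *Ins2* and *Gcg* among them, were listed at 0 in every library, and *Cela1* averaged 22.1 FPKM. Summed markers ran from 13.0 to 94.9 FPKM for Kupffer cells and from 27.3 to 72.9 FPKM for stellate cells and fibroblasts. They ran from 19.3 to 40.4 FPKM for endothelial cells and from 2.31 to 8.79 FPKM for cholangiocytes. The 4 lymphocyte and 3 adipocyte markers each averaged under 1 FPKM. Log2 values of libraries from the same genotype and time correlated at r = 0.955 to 0.974 across genes, which are not independent replicates. The median r was 0.968 for these pairs and 0.956 for pairs from different groups. The labels do not say that the 2 libraries of a group came from separate mice, so p-values measure the spread between these libraries, and the number of reads behind each FPKM is unknown. A level of bulk RNA does not tell fewer cells of a type from less RNA per cell.

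The receptor for glucagon was by far the most abundant of the 9 transcripts. *Gcgr* averaged 97.97 ± 8.88 FPKM (SD, n = 24), followed by *Akt2* at 24.3 ± 2.48, *Akt1* at 18.8 ± 3.04, *Insr* at 17.5 ± 2.94 and *Pik3r1* at 13.1 ± 4.38. Below these came *Foxo3* at 8.10 ± 2.25, *Foxo1* at 3.84 ± 0.985, *Irs2* at 3.41 ± 2.26 and *Irs1* at 2.96 ± 0.822 FPKM. Between neighbours in this order, only *Gcgr* over *Akt2* and *Foxo3* over *Foxo1* held in all 24 libraries, and only for these was the gap wider than the SDs. *Akt2* exceeded *Akt1* in 20 libraries and *Pik3r1* exceeded *Foxo3* in 21. *Akt1* over *Insr* and *Insr* over *Pik3r1* each held in 15, *Foxo1* over *Irs2* in 17 and *Irs2* over *Irs1* in 12, so these neighbours did not differ beyond their spread. FPKM is scaled by transcript length, which is what allows levels of different genes to be set side by side.

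**Figure D1:**
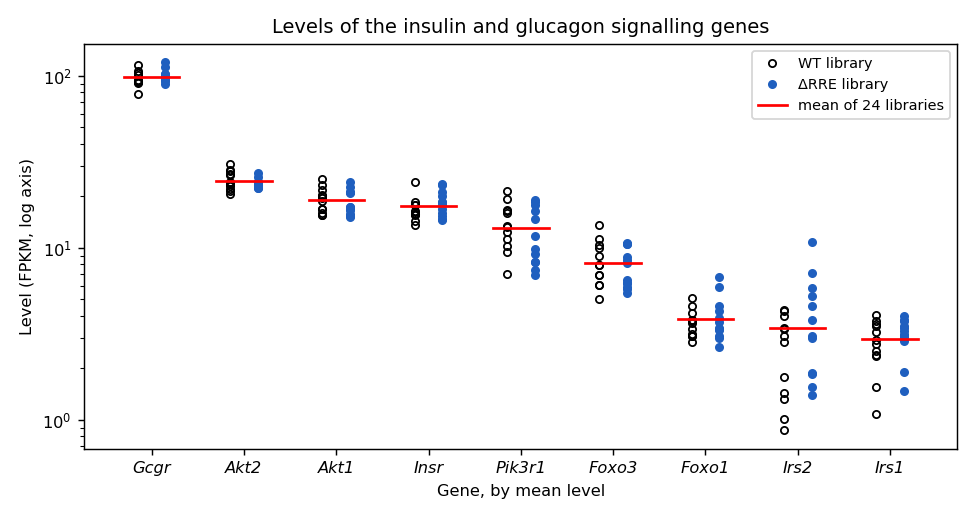
Level of each of the 9 genes in every library (FPKM, log axis), with open circles for the 12 WT and filled circles for the 12 ΔRRE libraries and a red line at the mean of all 24. *Gcgr* stands above all other genes in every library, and *Irs2* has the widest spread for its level, from 0.866 to 10.8 FPKM.

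Close relatives of the 9 genes were mostly scarce in this tissue. *Igf1r*, the related receptor for insulin-like growth factor, averaged 0.184 FPKM, and the ratio of *Insr* to *Igf1r* was between 45.6 and 193 in the 24 libraries. The PI3 kinase subunit *Pik3r3* averaged 0.480 FPKM. The adaptor *Irs3* averaged 0.0509 FPKM and was listed at 0 in 6 libraries, *Foxo6* averaged 0.0214 FPKM, and *Irs4* was listed at 0 in all. The exceptions were *Pik3r2*, at 4.13 ± 0.620 FPKM, and *Foxo4*, which at 8.41 ± 1.29 FPKM (SD, n = 24) was level with *Foxo3*.

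Of the 9 genes, *Pik3r1* and *Foxo3* had a daily rhythm, and neither their rhythms nor those of the other 7 differed between the genotypes beyond the spread of the libraries. A rhythm of 24 h was tested over both genotypes together on log2(FPKM + 0.1) with limma, and 2 of the 9 genes had an adjusted p under 0.05 against 18.7% of all genes tested. The share of the 9 was therefore close to that of all genes. In tests of 1 genotype at a time, *Pik3r1* and *Foxo3* passed in WT, where the background was 10.3%, and *Pik3r1* passed in ΔRRE, where it was 4.57%. The difference in rhythm passed for 0 of the 9 (0.00889% of all genes) by adjusted p and for 0 at an unadjusted p under 0.05 (2.84% of all genes), and two-sided exact permutation p-values ran from 0.206 for *Pik3r1* to 0.907 for *Insr*.

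*Pik3r1* encodes p85α, the main regulatory subunit of PI3 kinase, which holds the catalytic subunit and docks it on IRS proteins. Its gene lies on the minus strand at chr13:101680563-101768217 (mm10). In WT, its level was 9.44 and 13.4 FPKM at CT2, 7.04 and 10.2 at CT6, 11.2 and 16.4 at CT10, 13.2 and 19.2 at CT14, 16.7 and 21.4 at CT18 and 12.4 and 15.8 at CT22. In ΔRRE, it was 8.24 and 11.8 at CT2, 7.38 and 9.24 at CT6, 9.76 and 14.6 at CT10, 18.5 and 18.9 at CT14, 16.3 and 17.7 at CT18 and 8.29 and 6.94 at CT22. The mean was lowest at CT6 and highest at CT18 in WT, and lowest at CT22 and highest at CT14 in ΔRRE. The libraries of the 2 genotypes overlapped at every time point but CT22.

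The fitted wave of *Pik3r1* had a log2 amplitude of 0.49 ± 0.13 (SE) with a peak at CT17.0 ± 0.984 h in WT, and of 0.60 ± 0.13 with a peak at CT14.7 ± 0.810 h in ΔRRE (joint test, limma, adjusted p = 0.00312). The highest time-point mean was 2.21 times the lowest in WT and 2.45 times in ΔRRE. The peak was fitted earlier in ΔRRE, by a difference of -2.27 ± 1.27 h (SE), but the waves did not differ beyond the spread of the libraries (exact permutation test, two-sided, p = 0.206). At CT22 the mean was 14.1 FPKM in WT and 7.62 FPKM in ΔRRE, a log2 difference of -0.87 ± 0.28 (SE). Of the 54 comparisons of a gene at a time point this had the smallest p, and it did not pass adjustment over all genes (limma, adjusted p = 0.927). The joint rhythm held without any single library, with adjusted p-values from 0.000577 to 0.00860. The calls in 1 genotype were less firm. In WT (adjusted p = 0.0358) the call was lost in 8 of 12 omissions, namely CT2 replicate 1, both of CT6, CT10 replicate 1, CT14 replicate 2, both of CT18 and CT22 replicate 2, and the adjusted p ran from 0.0264 to 0.0913. In ΔRRE (adjusted p = 0.0439) it was lost in 9 of 12, all but CT2 replicate 2, CT10 replicate 1 and CT22 replicate 2, and ran from 0.0115 to 0.105.

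*Foxo3*, a forkhead factor that AKT keeps in the cytoplasm and that serves glucose production and stress resistance, lies on the minus strand at chr10:42181841-42276755 (mm10). Its WT levels were 6.06 and 6.96 FPKM at CT2, 13.6 and 6.97 at CT6, 8.93 and 10.02 at CT10, 10.4 and 11.2 at CT14, 7.88 and 7.88 at CT18 and 6.07 and 5.03 at CT22. In ΔRRE they were 5.48 and 6.25 at CT2, 5.93 and 6.23 at CT6, 10.6 and 10.5 at CT10, 10.6 and 8.53 at CT14, 8.15 and 6.47 at CT18 and 5.73 and 8.86 at CT22. The level was high from CT10 to CT14 in both genotypes, and the highest single value, 13.6 FPKM, was 1 WT library at CT6 whose partner was at 6.97 FPKM.

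The fitted wave of *Foxo3* peaked in WT at CT11.1 ± 0.923 h with a log2 amplitude of 0.44 ± 0.11 (SE). In ΔRRE it peaked at CT13.1 ± 1.09 h with an amplitude of 0.38 ± 0.11 (joint test, limma, adjusted p = 0.00826, and 0.00202 to 0.0216 without any single library). The peaks differed by 2.03 ± 1.42 h (SE) and the waves did not differ beyond the spread (exact permutation test, two-sided, p = 0.507). The 2 genotypes did not overlap at CT6, where ΔRRE was lower by a log2 difference of -0.67 ± 0.25 (SE), and at CT10, where it was higher by 0.16 ± 0.25. A test of whether the genotype difference varied with time did not pass for *Foxo3* or any other of the 9 genes (limma, adjusted p = 0.99991 for each). The call in WT (adjusted p = 0.0452) was kept only when CT6 replicate 1, CT6 replicate 2 or CT10 replicate 1 was left out, with a range from 0.00938 to 0.116 over the 12 omissions, and it was lost with the replicate number as a block (0.0501). In ΔRRE *Foxo3* missed the threshold (adjusted p = 0.0976) and passed it without CT22 replicate 2 (0.0348).

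**Figure D2:**
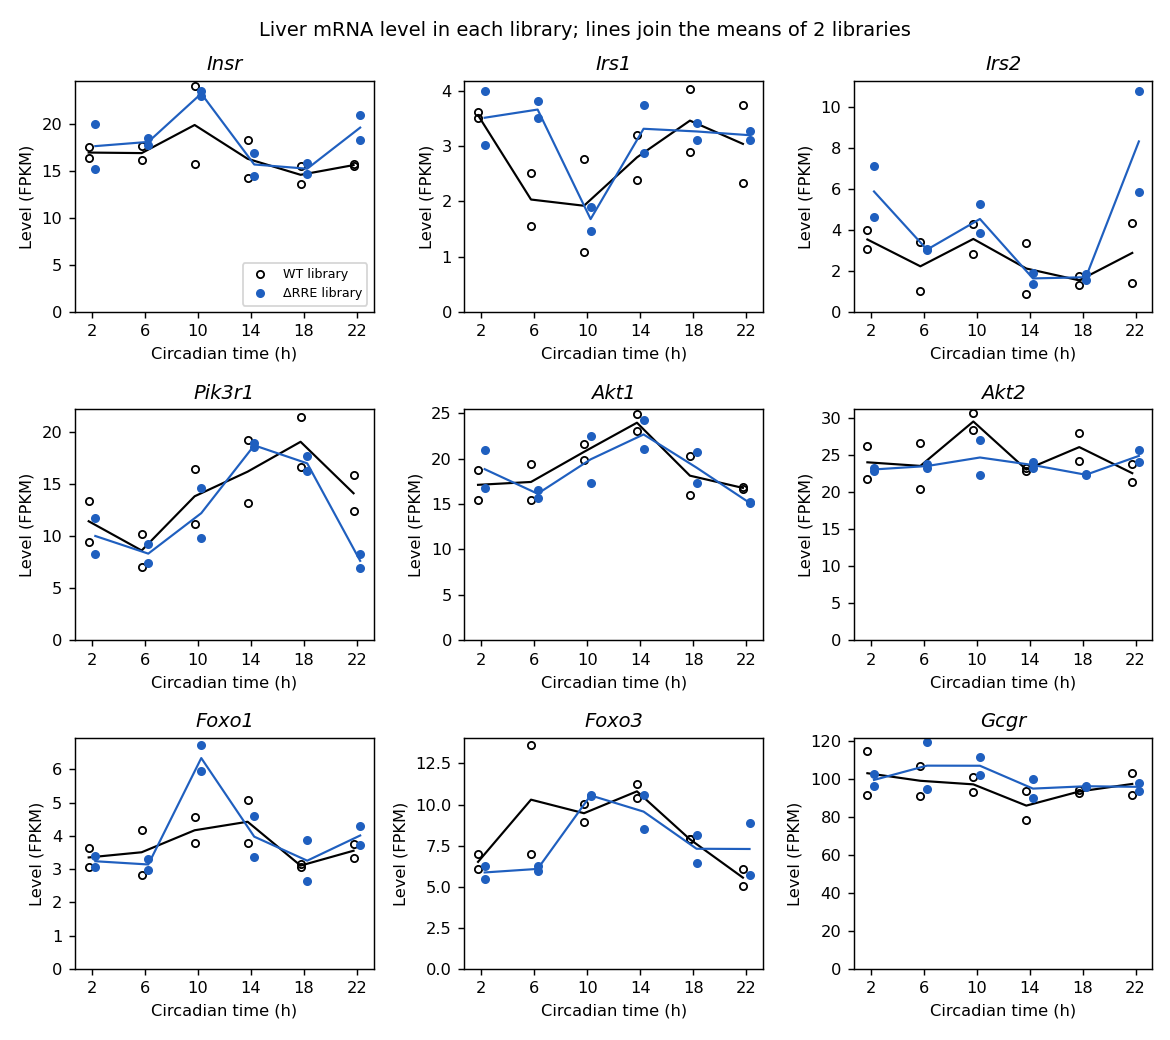
Level in FPKM against circadian time in hours for the 9 genes, with open circles for WT libraries, filled circles for ΔRRE libraries and lines through the means of the 2 libraries. *Pik3r1* and *Foxo3* have a daily wave by the joint test of both genotypes, *Akt2* and *Gcgr* stay nearly level, and the 2 ΔRRE libraries of *Irs2* at CT22, 5.86 and 10.8 FPKM, lie above both WT libraries.

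By the Pearson correlation of the 12 group means on the log2 scale, among the 6616 genes that averaged 5 FPKM or more, the genes most like *Pik3r1* were *Per2* (r = 0.934), *Tsku* (0.933) and *Tnks1bp1* (0.926). *Per2* is a repressor of the clock itself. Those most like *Foxo3* were *Fdx1* (0.908), *Dazap1* (0.899) and *Ciart* (0.876). These are descriptions over group means that share their libraries.

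*Irs2* was the most variable of the 9 genes and the only 1 whose mean level differed between the genotypes before adjustment. IRS2 is an adaptor whose transcription in liver is known to be raised by fasting through FOXO and cAMP and lowered by insulin. The gene lies on the minus strand at chr8:10984681-11008458 (mm10). In WT, it was at 4.0 and 3.06 FPKM at CT2, 3.43 and 1.01 at CT6, 4.28 and 2.83 at CT10, 3.36 and 0.866 at CT14, 1.31 and 1.76 at CT18 and 4.32 and 1.42 at CT22. In ΔRRE, it was at 7.13 and 4.60 at CT2, 3.07 and 3.0 at CT6, 5.23 and 3.82 at CT10, 1.88 and 1.38 at CT14, 1.83 and 1.54 at CT18 and 5.86 and 10.8 at CT22. At CT2 and CT22 both ΔRRE libraries exceeded both WT libraries, and at the other 4 time points the genotypes overlapped.

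Over the 6 time points, *Irs2* was higher in ΔRRE by 0.56 ± 0.24 (SE) on the log2 scale, in the mean of 5 of 6 time points (exact permutation test, two-sided, p = 0.0463). This did not pass adjustment over all genes (limma, adjusted p = 0.519), and no gene of the 11244 did (0%). *Irs2* was the 1 of the 9 genes with an unadjusted p under 0.05, as 8.91% of all genes had. The largest gap was at CT22, where the means were 2.87 FPKM in WT and 8.31 FPKM in ΔRRE, 2.89 times as high, or 1.63 ± 0.59 (SE) on the log2 scale (limma, adjusted p = 0.961). Without CT22, an alternative added after the data were seen, the difference in mean level was 0.35 (limma, adjusted p = 0.816). Gaps between libraries of the same group were wide. The SD within pairs was 0.668 on the log2 scale, above that of 95.0% of the genes tested, whose median was 0.247.

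Within ΔRRE, *Irs2* reached a mean of 8.31 FPKM at CT22 and fell to 1.63 FPKM at CT14, a ratio of 5.10 between the highest and lowest time, against 2.31 in WT. Omission of 1 library moved this ratio from 3.60 to 6.60 in ΔRRE and from 2.02 to 4.10 in WT, the highest without CT14 replicate 1 and 3.50 without CT6 replicate 1. Its fitted amplitude was 0.86 ± 0.29 (SE) with a peak at CT2.0 in ΔRRE and 0.37 ± 0.29 with a peak at CT4.4 in WT. The 24 h wave missed the threshold in ΔRRE (limma, adjusted p = 0.133). With the time point as a factor of 6 levels instead of a wave, the change over time in ΔRRE passed (limma, adjusted p = 0.0167), as it did for *Pik3r1* (0.0424). The difference in rhythm between the genotypes did not pass (exact permutation test, two-sided, p = 0.338).

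Some measures outside the pathway also had higher point estimates in ΔRRE, and none of their genes passed adjustment. The summed level of 5 acute-phase genes, which the liver makes in inflammation, was 1267 to 3708 FPKM in WT and 1477 to 7553 FPKM in ΔRRE. Point estimates were higher in ΔRRE for 5 of the 5 genes, 2 of them at an unadjusted p under 0.05 (7.16% of all genes). The sum of the 3 red blood cell genes was 314 to 977 FPKM in WT and 350 to 2819 FPKM in ΔRRE, with 2 of 3 at an unadjusted p under 0.05 as deposited and 1 after rescaling. At CT22, where the gap in *Irs2* was largest, the acute-phase sum was 2382 and 1623 in WT and 3711 and 1736 FPKM in ΔRRE. The library with more *Irs2* had the higher sum in WT and the lower sum in ΔRRE. The red blood cell sum at CT22 was 977 and 550 FPKM in WT and 630 and 990 FPKM in ΔRRE. In both pairs it was higher in the library with more *Irs2*. The part of these measures in the levels of *Irs2* and of the FOXO and cAMP targets described further on was not tested.

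*Irs1*, the other main adaptor, was the least abundant of the 9 genes and lies on the minus strand at chr1:82233101-82291416 (mm10). Its WT levels were 3.51 and 3.62 FPKM at CT2, 1.55 and 2.52 at CT6, 2.76 and 1.08 at CT10, 3.21 and 2.39 at CT14, 2.89 and 4.03 at CT18 and 3.75 and 2.34 at CT22. In ΔRRE they were 3.03 and 4.01 at CT2, 3.82 and 3.51 at CT6, 1.46 and 1.90 at CT10, 2.88 and 3.76 at CT14, 3.11 and 3.43 at CT18 and 3.12 and 3.28 at CT22. In both genotypes the lowest mean was at CT10, and at CT6 both ΔRRE libraries lay above both WT libraries, by 0.86 ± 0.35 (SE) on the log2 scale (limma, unadjusted p under 0.05, adjusted p = 1). The joint rhythm did not pass (limma, adjusted p = 0.174). The ratio of *Irs2* to *Irs1* ranged from 0.363 to 3.59 and was over 1 in 6 of 12 libraries of each genotype.

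The RefSeq promoter windows (250 bases before to 50 bases after a transcript start, GRCm38.p6) were read for motif letters, since the E-box is the element through which BMAL1 acts and the RRE is the element that was deleted. Windows were found for 8 of the 9 genes, 13 windows in all. Both strands were searched for the E-box CACGTG, the RRE half-site AGGTCA, the forkhead site GTAAACA and the core of the cAMP response element TGACGT. The 2 IRS genes each held 1 E-box, given here 5′ to 3′ with the motif in capitals on the strand of the gene (minus strand, chr1:82291537-82291566 and chr8:11008956-11008985), with its first base at position -115 and -44 from the RefSeq start of the transcript. The RefSeq start lies upstream of the end of the GENCODE gene printed here, by 23 bases for *Irs1* and by 471 bases for *Irs2*.
Irs1: cagaggctccgtCACGTGttttgctcctct
Irs2: gtaacgcagagtCACGTGttgttttgctct

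An E-box was present in 7.17% of the 32544 distinct promoter windows in the table. *Akt1* held an RRE half-site at position -238 and a forkhead site on the opposite strand at -161, letters found in 16.2% and 3.66% of all windows. The windows of *Pik3r1* and *Foxo3*, the genes with a rhythm, held none of the 4 motifs, nor did those of *Akt2*, *Foxo1* and *Gcgr*. These are matches of letters and not measured binding sites, and neither *Irs1* nor *Irs2* passed the test of a joint rhythm.

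*Insr*, the insulin receptor, lies on the minus strand at chr8:3122061-3279617 (mm10). In WT, it ranged from 13.6 FPKM at CT18 to 24.1 FPKM at CT10, with a mean of 16.7 ± 2.68 (SD, n = 12), and in ΔRRE from 14.5 at CT14 to 23.5 at CT10, with a mean of 18.3 ± 3.09. At CT10 the ΔRRE libraries were at 23.0 and 23.5 FPKM, while the WT libraries were at 24.1 and 15.8 FPKM. At CT22 both ΔRRE libraries, 18.3 and 21.0 FPKM, exceeded the WT libraries, 15.7 and 15.6 FPKM. The difference in mean level was 0.12 ± 0.07 (SE) on the log2 scale, in the same direction at 5 of 6 time points, and did not pass (exact permutation test, two-sided, p = 0.0968; limma, adjusted p = 0.650). The rhythm did not pass either (joint test, limma, adjusted p = 0.391).

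*Gcgr*, the glucagon receptor, lies on the plus strand at chr11:120530699-120538986 (mm10) and varied little over the day. Its libraries lay between 78.2 and 115 FPKM in WT and between 89.7 and 119 FPKM in ΔRRE, with means of 95.9 ± 9.37 in WT and 100.004 ± 8.26 in ΔRRE (SD, n = 12 each). The highest time-point mean was 1.2 times the lowest in WT and 1.13 times in ΔRRE, against medians of 1.49 and 1.5 over all genes tested. The difference in mean level was 0.06 ± 0.05 (SE) on the log2 scale (exact permutation test, two-sided, p = 0.232). The ratio of *Gcgr* to *Insr* was between 3.86 and 7.01 in all 24 libraries.

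The kinases *Akt1* and *Akt2*, which carry the signal from PI3 kinase, were close to each other in level. *Akt1* lies on the minus strand at chr12:112653821-112674884 and *Akt2* on the plus strand at chr7:27591552-27640826 (mm10). *Akt1* was highest at CT14 in both genotypes, with 24.9 and 23.0 FPKM in WT and 24.2 and 21.1 FPKM in ΔRRE. It was lowest at CT22, with 16.7 and 16.9 FPKM in WT and 15.1 and 15.2 FPKM in ΔRRE. The amplitudes were 0.23 ± 0.08 and 0.20 ± 0.08 (SE) with peaks at CT12.8 and CT13.1. This missed the threshold (joint test, limma, adjusted p = 0.0632) and passed it after rescaling of the libraries (0.0176) and without WT CT2 replicate 2 (0.0439), WT CT18 replicate 1 (0.0405), ΔRRE CT2 replicate 1 (0.0147) or ΔRRE CT10 replicate 1 (0.0475).

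*Akt2*, the isoform best known for insulin action on glucose, did not pass the test of rhythm (joint test, limma, adjusted p = 0.755). Its amplitude was 0.10 ± 0.06 in WT and 0.02 ± 0.06 in ΔRRE (SE). The WT libraries were at 30.7 and 28.4 FPKM at CT10, above the 27.1 and 22.3 FPKM of ΔRRE, and the order was the opposite at CT22, with 21.4 and 23.8 FPKM in WT and 25.7 and 24.1 FPKM in ΔRRE. A change of the genotype difference over time was not detected (limma, adjusted p = 0.99991). The SD within pairs was 0.128 on the log2 scale, and 7.15% of the genes tested had a smaller one.

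*Foxo1*, the forkhead factor that drives glucose production when insulin is low, lies on the plus strand at chr3:52268336-52353221 (mm10). Its level was under that of *Foxo3* in all 24 libraries, at a ratio of 0.307 to 0.748. In WT, it lay between 2.83 and 5.08 FPKM with no time point apart from the rest. In ΔRRE, the 2 libraries of CT10, at 5.94 and 6.74 FPKM, were the highest of all 24 and above the WT libraries of that time, 4.56 and 3.78 FPKM, by 0.60 ± 0.23 (SE) on the log2 scale (limma, adjusted p = 0.633). The other 10 ΔRRE libraries lay between 2.63 and 4.58 FPKM. The joint rhythm did not pass (limma, adjusted p = 0.351).

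**Figure D3:**
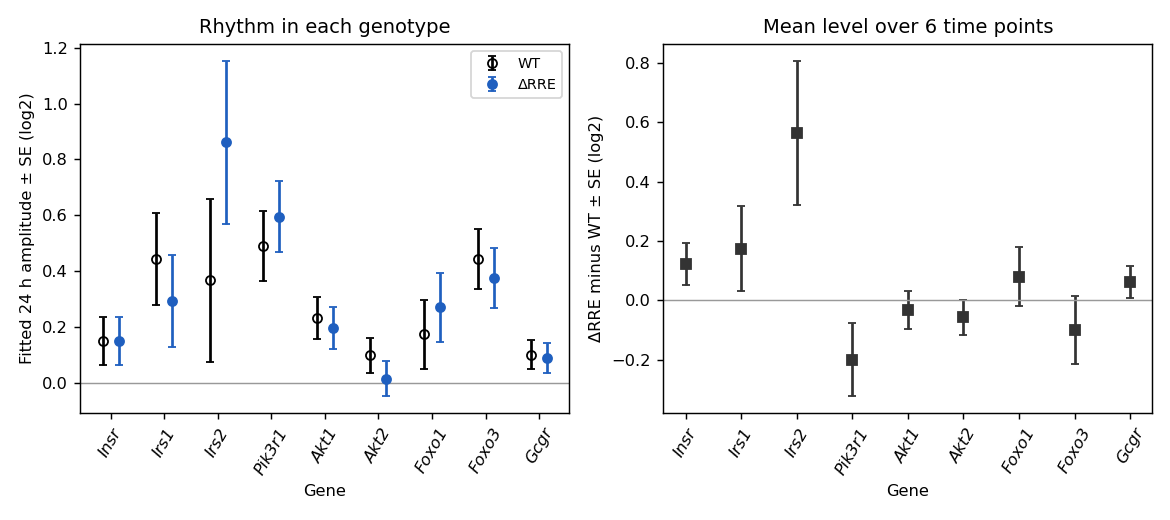
Left, the fitted 24 h amplitude on the log2 scale with its SE for each gene in WT (open) and ΔRRE (filled); right, the difference in mean level, ΔRRE minus WT, on the log2 scale with its SE. Only *Pik3r1* (amplitudes 0.49 and 0.60) and *Foxo3* (0.44 and 0.38) passed the joint test. An amplitude cannot fall below 0, and that of *Irs2* in ΔRRE, 0.86 ± 0.29, is the largest although its rhythm did not pass. *Irs2* also has the largest level difference, 0.56, with the widest error.

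Over the 9 genes and 6 time points, the libraries of the genotypes did not overlap in 15 of 54 comparisons, 10 higher and 5 lower in ΔRRE. At CT2 this was 1 of 9 genes against 29.6% of all genes tested, at CT6 3 (28.0%), at CT10 4 (32.7%), at CT14 0 (28.4%), at CT18 2 (31.2%) and at CT22 5 (37.1%). The 5 genes at CT22 were *Insr*, *Irs2* and *Akt2*, higher in ΔRRE, and *Pik3r1* and *Akt1*, lower. At an unadjusted p under 0.05 (limma), there were 2 of the 9 at CT6 (*Irs1* and *Foxo3*, against 3.28% of all genes), 1 at CT10 (*Foxo1*, 6.16%) and 2 at CT22 (*Irs2* and *Pik3r1*, 4.66%). There were 0 at CT2, CT14 and CT18, against 2.57%, 4.63% and 3.61%. After adjustment 0 of the 9 passed at any time point, against 0.00889%, 0%, 0.0178%, 0.0267%, 0.00889% and 0% of all genes from CT2 to CT22.

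By the 3 criteria that the study used for rhythm, with the p of the 24 h wave under 0.3 in place of its own program, 3 of the 9 genes met them in WT and 6 in ΔRRE, against 37.0% and 35.4% of all genes. These criteria also ask for a highest mean over 1.5 times the lowest and a limited spread. All criteria together were met by *Irs1*, *Pik3r1* and *Foxo3* in both genotypes, and by *Insr*, *Irs2* and *Foxo1* in ΔRRE alone. The difference in rhythm itself was not detected for any of these 3, with exact permutation p-values (two-sided) of 0.907, 0.338 and 0.791, and *Insr* passed the limit in ΔRRE at a ratio of 1.52. The count in ΔRRE dropped to 3 without CT10 replicate 1 or CT10 replicate 2, and that in WT was 5 without CT6 replicate 1 or CT14 replicate 1.

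The wider pathway was described through 7 lists. Among receptors, adaptors and ligands, 10 of 18 genes were tested and 2 had a joint rhythm by adjusted p (18.7% of all genes): *Ceacam1*, which promotes insulin clearance, at amplitudes of 0.36 in WT and 0.29 in ΔRRE with peaks at CT1.8 and CT3.2, and *Grb14*, an inhibitor of the receptor, at 0.29 and 0.34. Of genes of the wider PI3 kinase family, 2 of 7 tested were rhythmic, *Pik3c3* and *Pik3c2a*. Of AKT, its kinases and the mTOR branch, 2 of 15 were: *Eif4ebp1*, a repressor of translation downstream of mTOR, peaking at CT10.1 in WT and CT10.4 in ΔRRE, and *Mtor* itself, at CT9.05 and CT9.62. *Pik3c2a* had its fitted peak at CT16.1 in WT and CT13.4 in ΔRRE. The PI3 kinase subunits *Pik3ca*, *Pik3cb* and *Pik3r2* did not pass (joint test, limma, adjusted p = 0.386, 0.458 and 0.696).

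Inhibitors of insulin signalling had 5 of 13 tested genes with a joint rhythm (18.7% of all genes). *Pid1*, which lowers the response to insulin, had amplitudes of 0.63 and 0.52 with peaks at CT0.358 and CT1.36 (limma, adjusted p = 1.6e-06). *Trib3*, a pseudokinase that binds AKT, had the widest swing of these, 1.59 in WT and 0.98 in ΔRRE, with peaks at CT7.5 and CT6.1. The phosphatases *Ptprf* and *Phlpp1* also passed, peaking at CT2.2 and CT2.6 in WT.

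The median ratio of the highest to the lowest time point was 2.37 in WT and 2.35 in ΔRRE for 14 FOXO partners and targets, against 1.43 and 1.80 for the 9 genes and 1.49 and 1.5 for all genes tested. Within the list 5 of the 14 had a joint rhythm (18.7% of all genes). *Pdk4*, which blocks the use of glucose as fuel, had amplitudes of 1.79 and 1.87 with peaks at CT23.4 and CT23.7, and *Ccng2*, a FOXO target, of 0.63 and 0.64 with peaks at CT24.0 and CT0.909. *Sesn3* and *Trib1* passed as well. Among genes induced by insulin, *Egr1*, an early-response transcription factor, had a joint rhythm with amplitudes of 2.77 and 2.57 and peaks at CT4.6 and CT2.7. Of 20 tested genes of the glucagon, cAMP and CREB branch, 6 did, against 18.7% of all genes. *Crem* was the widest of those named, at 0.57 and 0.45, beside the kinase subunits *Prkar1a* and *Prkaca* and the cyclase *Adcy9*.

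No gene of the 7 lists differed in rhythm or in mean level between the genotypes by adjusted p (limma). Before adjustment, 6 of the 14 FOXO partners and targets were higher in ΔRRE and 0 lower, against 7.16% higher and 1.75% lower of all genes, and the list median was 0.26 on the log2 scale against 0.04 over all genes. They were *Igfbp1* (1.79 ± 0.49), *G6pc* (0.71 ± 0.18), *Pck1* (0.69 ± 0.21), *Pdk4* (0.62 ± 0.27), *Ccng2* (0.41 ± 0.12) and *Foxo4* (0.14 ± 0.06; log2 ± SE, adjusted p from 0.332 to 0.531). *Igfbp1*, *G6pc* and *Pck1* are the classic genes that insulin represses in liver through FOXO1, the latter pair for glucose production. Of the 4 genes induced by insulin, *Fasn* was lower, by a difference of -0.51 ± 0.21 (SE). In the glucagon branch 5 of 20 were higher, with *Sik1* (0.65 ± 0.21) and *Crem* (0.30 ± 0.13) the largest, and none lower. Genes in this paragraph were named for passing before adjustment, after their values were seen.

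This balance depended in part on the scale of the libraries. Over all genes, 805 were higher and 197 lower at an unadjusted p under 0.05 as deposited, and 419 and 363 after each library was divided by its median ratio to the others. After that rescaling 5 of the 6 FOXO genes remained, without *Foxo4*, and 1 of the 5 of the glucagon branch, *Sik1*. *Irs2* stood at 0.52 ± 0.24 (SE; limma, adjusted p = 0.695).

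Insulin is known to hold down both *Irs2* and *Igfbp1*, and the library with the highest *Irs2* of all 24 also held the highest *Igfbp1*. *Igfbp1* was at 13.9 and 1.69 FPKM in WT and 60.7 and 166 FPKM in ΔRRE at CT22, the time point of the largest gap in *Irs2*. *Pck1* was at 372 and 394 FPKM in WT and 1067 and 930 FPKM in ΔRRE at CT22. At CT10 the ΔRRE means were 5.75 times those of WT for *Igfbp1*, 2.98 for *G6pc* and 2.49 for *Pck1*, with no overlap of the libraries. *Irs2* was 1.27 times as high at CT10 and its genotypes overlapped. A shared cause of these levels was not tested. In both genotypes *Igfbp1* was lowest at CT18, with 0.985 and 1.26 FPKM in WT and 2.41 and 2.92 FPKM in ΔRRE, where *Irs2* was also low. Over the day, *Igfbp1* had a median of 10.1 FPKM in WT (range 0.985 to 31.2, n = 12) and 28.1 FPKM in ΔRRE (range 2.41 to 166, n = 12), and the genotypes overlapped.

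**Figure D4:**
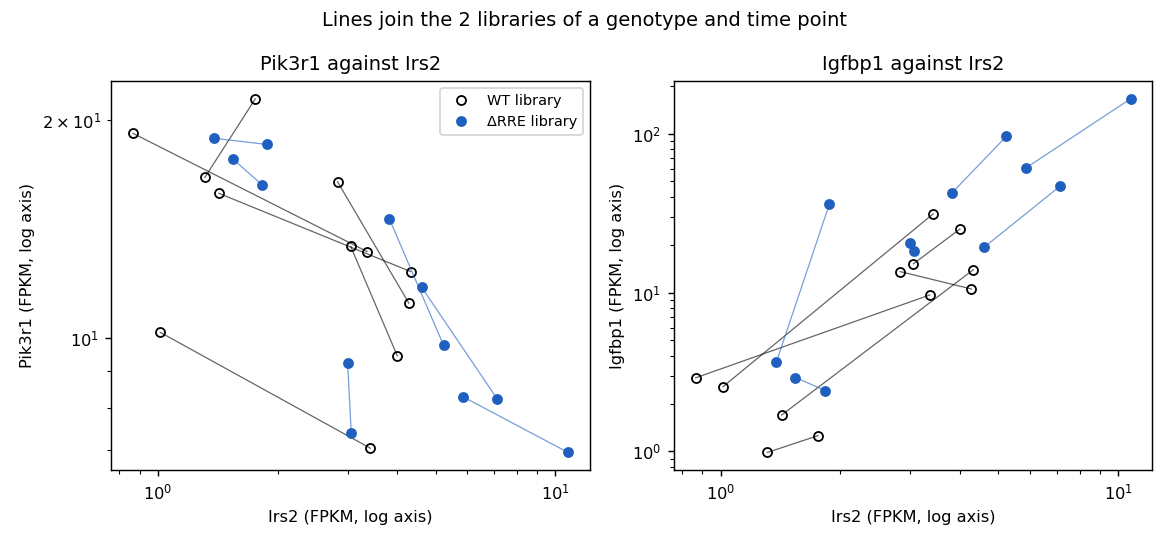
*Pik3r1* (left) and *Igfbp1* (right) against *Irs2*, each in FPKM on log axes, 1 point per library with open circles for WT and filled circles for ΔRRE; lines join the 2 libraries of a genotype and time point. In 11 of 12 pairs the library with more *Irs2* had less *Pik3r1*, and in 9 of 12 it had more *Igfbp1*. The count was also 9 of 12 for *Insr*, *Gcgr*, *Pck1*, *Ccng2* and the red blood cell gene *Hba-a1*. *Irs2* was the higher in replicate 1 in 10 of 12 groups, and *Pik3r1* was the higher in replicate 2 in 11.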

How the data were processed

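The authors isolated poly(A) RNA, prepared directional libraries and deposited 1 table of FPKM per library, without pooling replicates. Per the labels and the submitters' processing notes, Trimmomatic 0.39, HISAT2 2.1.0, StringTie 1.3.5 and mm10 were used. The annotation is not given in the sources used here. All 1313592 values equalled those of the deposited series table, and library sums ran from 554170 to 624746 FPKM. The reads behind a value are not known here. Counting error was therefore not given and count tests were not run.

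Libraries were grouped by the genotype and time in their labels. Genes averaging 1 FPKM or more were tested on log2(FPKM + 0.1) in limma 3.58.1 (R 4.3.3, intensity-trend prior) with Benjamini-Hochberg adjustment over 11244 genes and a call at an adjusted p under 0.05. Fold changes on this scale understate those of low genes. Rhythm was a cosine and sine of 24 h, tested in each genotype, in both jointly and for their difference, and replaced BIO_CYCLE, the study's program, which was not run. Mean level used time as a factor, and time points used 12 group means with a shared spread. For single genes, exact permutation tests went through the 23328 ways to split the 4 libraries per time point evenly. Steps were tested on simulated data.

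The 9 genes, the gene lists and the tests were chosen with earlier results of these data known. Named beside the 9 were their paralogs, the ligands, and from each list at most the 4 genes with the smallest p among those passing adjustment. Some genes of these lists are not reported here. Gene positions came from GENCODE M21 (GRCm38, the build of mm10). The alternatives were another constant (1 or 0.01 FPKM), no filter or at least 5 FPKM, rescaling, no trend, the replicate number as a block, time as a factor and omission of each library. Figures used matplotlib 3.10.9.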

Additional observations from a re-analysis of the deposited data

How the results depend on the processing

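The joint rhythms of *Pik3r1* and *Foxo3* passed under every alternative run except time as a factor, where 1 of the 9 genes did (*Pik3r1*). Calls in 1 genotype were less stable. In WT, 2 genes passed as reported, 0 without a filter, without a trend or with time as a factor, 1 after rescaling, and 0 to 1 when 1 library was left out. In ΔRRE, 1 passed as reported, 0 without a filter or a trend, 2 with time as a factor, and 0 to 2 without 1 library. By the study's criteria, 3 to 5 genes passed in WT and 3 to 7 in ΔRRE without 1 library. At a mean of at least 5 FPKM the count in ΔRRE was 3, since *Irs1*, *Irs2* and *Foxo1* were not tested there. No gene of the 9 differed in rhythm, mean level or at a time point by adjusted p under any alternative. Without a filter more genes enter the adjustment; the cause of the other changes was not tested.

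Over all genes tested, differences within replicate pairs correlated only weakly between the genotypes at the same time, at -0.12 to 0.21. Single genes still went with the replicate number. *Irs2* was the higher in replicate 1 in 10 of 12 groups and *Pck1* in 11, and *Pik3r1* was the higher in replicate 2 in 11. With the replicate block, 1 gene passed in WT (*Pik3r1*, with *Foxo3* lost at an adjusted p of 0.0501 in limma), 1 in ΔRRE and 2 jointly. The amplitude difference, ΔRRE minus WT, changed sign where it was close to 0. For *Insr* it was -0.00028 and became 0.0269 after rescaling, with -0.0395 to 0.0625 over the omissions of a library. For *Gcgr* it was -0.01 and became 0.00225, with -0.0486 to 0.0278. Over the omissions it ran from -0.298 to 0.0142 for *Irs1*, from -0.0833 to 0.0459 for *Akt1*, from -0.0116 to 0.186 for *Foxo1* and from -0.128 to 0.0153 for *Foxo3*. Over all genes, rhythm calls in WT numbered 1157 as reported, 519 without a filter and 361 with time as a factor, those in ΔRRE 514 and 197 without a filter, and joint calls 2107 and 1087 with time as a factor. Without a filter the study's criteria were met by 9297 genes in WT and 8776 in ΔRRE, against 4156 and 3985, and 74 against 7 calls were made at single time points. The difference in rhythm gave 1 call as reported, 0 in 19 of 24 omissions of a library and in 5 of 8 other settings, and 4 with time as a factor. Calls in WT dropped to 770 without CT2 replicate 1 and 740 without CT10 replicate 2, and those in ΔRRE to between 298 and 330 without either library of CT14 or CT18. Calls at single time points rose to 11 without either WT library of CT6 or ΔRRE CT6 replicate 1 and to 27 without ΔRRE CT14 replicate 2.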

Other observations

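Libraries of the same genotype and time point differed along lines that several of the 9 genes shared. In 11 of 12 such pairs the library with the higher *Irs2* had the lower *Pik3r1*, the exception being WT at CT18. As a ratio of the *Irs2* values, the gap was largest in WT at CT14, where *Irs2* was at 3.36 and 0.866 FPKM and *Pik3r1* at 13.2 and 19.2 FPKM in the same 2 libraries. *Insr* and *Foxo1* moved the same way in 10 of 12 pairs. *Irs2* moved with *Igfbp1*, *Pck1*, *Insr*, *Gcgr* and *Ccng2* in 9 of 12 each, and *Pik3r1* moved against *Pck1* and against *Ccng2* in 10 of 12. The counts among *Irs2*, *Pik3r1*, *Pck1* and *Ccng2* go with the replicate number of the labels. *Irs2* was the higher in replicate 1 in 10 of 12 groups, *Pck1* in 11 and *Ccng2* in 9, and *Pik3r1* was the higher in replicate 2 in 11. For *Insr*, *Gcgr* and *Igfbp1* replicate 1 was the higher in 7 groups, and for *Foxo1* in 5. What the number stands for is not given in the labels, and its part in the counts cannot be told apart.

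*Gcgr* ran against *Srebf1*, the insulin-induced regulator of fat synthesis, in 11 of 12 pairs and with *G6pc* in 10 of 12, although its SD within pairs was only 0.136 on the log2 scale. These pairs of genes were picked out after 162 ordered pairs had been counted, so the counts are descriptions with no test. Red blood cell RNA also differed within pairs: *Hba-a1* moved against *Pik3r1* and with *Gcgr* in 10 of 12, and with *Irs2* in 9 of 12. *Hba-a1* was the higher in replicate 1 in 9 of 12 groups, and its part in these counts was not tested.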
